A study of Cricetulus griseus with 10 samples.

Results

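The genes described here are 35 genes of mitosis and the G2/M transition, out of 13521 features with a mean of at least 10 normalised reads and 25156 features in the deposited table. They were taken by name from a list of 38 such genes, not picked by their values, though the list was chosen with earlier results of these data known. Of the 35, 13 were found by symbol and 22 by Chinese hamster gene number. All 35 passed the minimum, with means over the 10 libraries between 145 (Cdc25c) and 8567 (Top2a) normalised reads. Cenpa, Birc5 and Kif11 were on the list, were matched to no feature, and are not analysed here.

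RNA was sequenced from wild-type CHO-K1, an established line derived from Chinese hamster ovary and much used to make recombinant proteins, while it was adapted to suspension growth in the serum-free medium SFM4CHO. Cells were sampled at passages 0, 2, 4, 6 and 10 of the adaptation (P0, P2, P4, P6 and P10), with 2 libraries at each, 10 in all. Every group is the same cell line, so that passage is the only label that differs. How P0 cells were grown is not stated, and neither is whether the libraries of a passage came from separate cultures, so each p-value below speaks of the spread between these libraries, which may be technical.

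A cell enters mitosis when cyclin-dependent kinase 1, bound to cyclin A or cyclin B, is switched on by the phosphatases of the Cdc25 family. The spindle assembly checkpoint then holds back the anaphase-promoting complex (APC/C) until the kinetochores of all chromosomes are attached to the spindle, after which APC/C with Cdc20 marks cyclin B and securin for destruction and the sister chromatids part. Most genes of this set are transcribed in G2 and mitosis and little in resting cells or in G1, which is why they serve as markers of proliferation.

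Values are normalised reads, that is read counts that the authors scaled for library size with DESeq. They are not divided by transcript length, so levels are compared between libraries and never between genes. Depth ranged from 8394219 to 16599495 reads per library. The duplicates of P0, P2 and P4 lay close together (correlations of log2 values over all features tested of 0.988, 0.989 and 0.992), and those of P6 (0.956) and P10 (0.93) further apart. P6 replicate 2 and P10 replicate 1 stood apart from the rest: the feature Dym held 1.15% and 1.41% of their normalised totals, against 4.32% in P6 replicate 1 and 8.53 to 13.5% in the other 7 libraries. Summed mesenchymal markers (Vim, Col1a1, Col1a2, Fn1, Thy1 and S100a4, 4 of the 6 above the minimum, Thy1 at 0 in every library) lay between 18689 and 25592 normalised reads. Summed epithelial markers (5 of 6 matched, only Cdh1 above the minimum) were 208 and 286 at P0, with 220 and 249 for P2, 219 and 181 for P4, 109 and 64.0 for P6 and 95.4 and 351 for P10. Ovarian granulosa markers (4 of 6 matched) summed to 269 and 259 at P0, with 1168.5 and 1034 for P2, 1825 and 1691 for P4, 1866 and 1554 for P6 and 1434.5 and 1153 for P10. Nearly all of that sum was Star, with a mean of 1175 normalised reads over the libraries, against 24.1 for Fshr, 13.9 for Amh and 12.3 for Inha. Leukocyte markers (6 of 6 matched, 3 above the minimum) summed to 54.0 and 61.8 at P0, with 67.7 and 76.0 for P2, 111 and 139 for P4, 132 and 198 for P6 and 154 and 76.5 for P10. Their part in the results below was not tested.

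Mitotic genes stood higher late in the adaptation than at its start. The median log2 difference of the 35 genes from their P0 means was 0.28 and 0.26 in the P2 libraries, 0.24 and 0.18 in the P4 libraries, 0.76 and 0.52 in the P6 libraries, and 1.30 and 0.95 in the P10 libraries. Over all features tested, the same medians lay between -0.11 and 0.06 in all 10 libraries. The 35 genes together made up 0.427% and 0.369% of the normalised total in the P0 libraries, 0.438% and 0.392% for P2, 0.387% and 0.381% for P4, 0.715% and 0.874% for P6, and 1.09% and 0.601% for P10. More cells in G2 or mitosis and more RNA per such cell cannot be told apart in these bulk libraries.

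**Figure D1:**
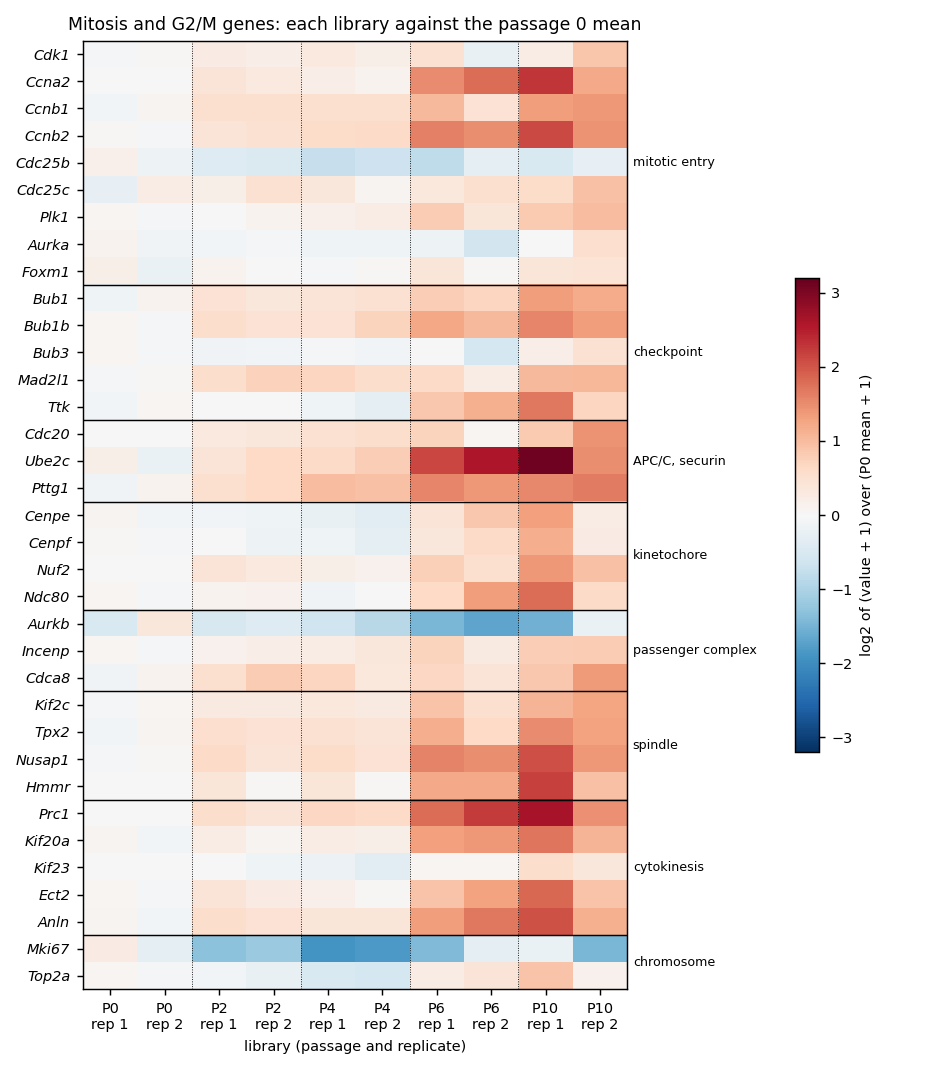
Colour gives the log2 of (value + 1) over (P0 mean + 1) for each of the 35 genes (rows, by role) in each of the 10 libraries (columns, by passage and replicate); red is above and blue below the P0 mean. The P6 and P10 columns are mostly red, with Ube2c reaching 3.11 in P10 replicate 1, and Mki67 is bluest at P4, down to -1.90 in replicate 1.

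The means did not move evenly from passage to passage. On the log2 scale the P2 mean was above the P0 mean in 25 of the 35 genes, the P4 mean above the P2 mean in 16, the P6 mean above the P4 mean in 29, and the P10 mean above the P6 mean in 33, all but Ube2c and Mki67 (for means of normalised reads, in 35). Over all 13521 features tested the same log2 counts were 6869, 6640, 6719 and 7266. The 16 genes of P4 against P2 thus lay near the share of all features. For the patterns that follow, the share over all features was not computed. In 12 genes the mean was higher at each passage than at the one before. In 8 genes the P4 mean lay below the P0 mean and the P10 mean above it. The highest passage mean was at P10 in 31 genes, at P6 in 1 (Ube2c) and at P0 in 3 (Cdc25b, Aurkb and Mki67). The highest single library was P10 replicate 1 in 19 genes and P10 replicate 2 in 13.

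Changes were tested with limma on log2(value + 1) in 1 fit of all 10 libraries, and a gene is called where its Benjamini-Hochberg adjusted p over the 13521 features is under 0.05. The 4 comparisons with P0 all use the same P0 libraries.

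At P2 no mitotic gene passed. None of the 35 was called in either direction, while 4.15% of all features tested were. The median log2 change was 0.29, against 0.01 over all features tested. At an unadjusted p under 0.05 8 genes were higher, against 8.1% of all features tested, and 1 was lower, against 10.5%. EdgeR called 0 of the 35 genes and DESeq2 called 1, counts given here without the share of all features. The lowest adjusted p belonged to Mad2l1, a checkpoint protein, with a log2 change of 0.65 (SE 0.17, limma adjusted p = 0.0791). Both P2 libraries lay above both P0 libraries in 22 of the 35 genes, against 34.2% of all features tested, and both lay below in 4, against 32.9%. The fit of P0 and P2 alone called 17 genes, 16 of them higher, where it called 29.1% of all features. Leaving out P10 replicate 1 or P10 replicate 2 from the full fit gave 5 calls, 4 of them higher, where 11.7% and 11.6% of all features were called.

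At P4, 1 gene of the 35 was called higher and 1 lower, in each direction a smaller share than over all features. Pttg1, the gene of securin, rose, with a log2 change of 0.97 (SE 0.17, limma adjusted p = 0.00985), and Mki67, which codes for the Ki-67 protein that coats mitotic chromosomes, fell, with a log2 change of -1.85 (SE 0.45, limma adjusted p = 0.0361). The background was 3.72% of features higher and 5.52% lower. The median log2 change of the 35 genes was 0.21, against 0.03 over all features tested. Both P4 libraries lay above both P0 libraries in 21 genes, against 37.8% of all features tested. Both lay below them in 10, a smaller share than the 34.6% of all features: Cdc25b, Aurka, Bub3, Ttk, Cenpe, Cenpf, Aurkb, Kif23, Mki67 and Top2a. The call of Pttg1 was lost without P0 replicate 1, P4 replicate 1 or P4 replicate 2 (highest adjusted p 0.112), and that of Mki67 in 6 of the 10 fits that left out 1 library (highest adjusted p 0.25), in the fit with a replicate block (adjusted p 0.0721) and with equal total scaling (adjusted p 0.056). The fit of P0 and P4 alone called 21 genes, 15 of them higher, with 42% of all features called. Without P10 replicate 1 or P10 replicate 2 the full fit called 10, 7 of them higher, with 20.6% and 20.4% of all features called.

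At P6, 18 of the 35 genes had risen, among them the mitotic cyclins, the checkpoint kinases and most proteins of the central spindle, and Aurkb had fallen. The background was 10.5% of features higher and 10.5% lower. The median log2 change was 0.64, against -0.07 over all features tested. Both P6 libraries lay above both P0 libraries in 28 genes, against 32% of all features tested, and below them in 3 (Cdc25b, Aurka and Aurkb), against 35.7%. The number called was 5 without P0 replicate 1 (3.05% of all features) or without P0 replicate 2 (5.19%), and 9 without P6 replicate 1 (13.3%). In the last of these fits the changes of Ccnb1 (0.47) and Plk1 (0.40) were smaller by over 1.5 times and not called. The 5 genes called in all 10 fits that left out 1 library were Ccnb2, Bub1b, Pttg1, Nusap1 and Kif20a.

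At P10, 22 of the 35 genes had risen and none had fallen. The background was 8.77% of features higher and 8.25% lower. At an unadjusted p under 0.05, 27 genes were higher and 0 lower, against 2330 and 2085 of the 13521 features. EdgeR and DESeq2 also called none of the 35 lower, given here without the share of all features. The median log2 change was 1.15, against 0.00 over all features tested. Both P10 libraries lay above both P0 libraries in 31 genes, against 28.3% of all features tested. Both lay below in Cdc25b alone, against 26% of all features, and Aurka, Aurkb and Mki67 overlapped with P0. Without P0 replicate 1, 6 were called (2.33% of all features), without P0 replicate 2, 11 (4.73%), and in a fit of the P0 and P10 libraries alone, 0 (0.362%). The 6 genes called in all 10 fits that left out 1 library were Ccnb2, Bub1, Bub1b, Pttg1, Nusap1 and Kif20a. Of the 22 called genes, those whose log2 change was smaller by over 1.5 times without P10 replicate 1 were Ube2c (1.49), Ttk (0.70), Hmmr (0.95) and Ect2 (0.92). Calls that single genes gained in fits without 1 P10 library are not read here, as these fits leave 1 library at P10. A fit without both P6 replicate 2 and P10 replicate 1 has 1 library each at P6 and P10 and takes its spread from the P0, P2 and P4 duplicates alone. It called 48.8% of all features at P6 and 46.3% at P10, and its calls of single genes are not read here.

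**Figure D2:**
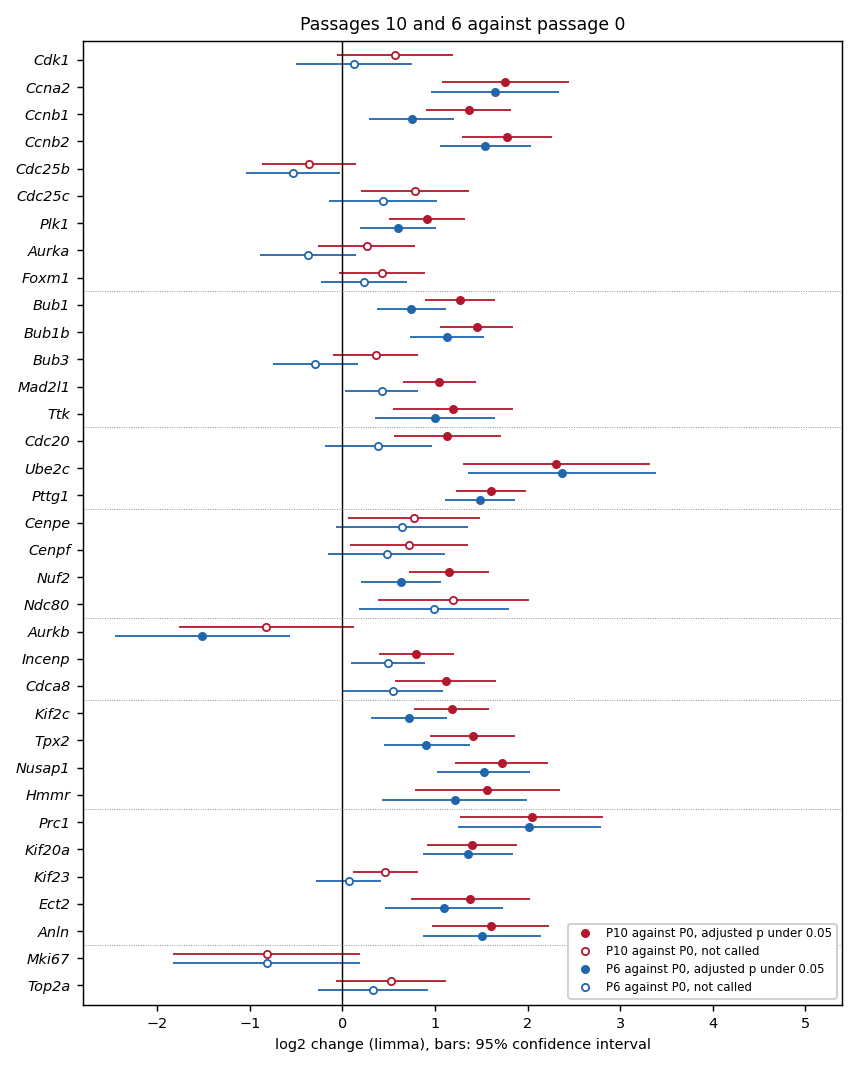
Points are limma log2 changes of the 35 genes at P10 (red) and P6 (blue) against P0, bars their 95% confidence intervals, filled points those with an adjusted p under 0.05. The P10 points reach from -0.82 (Aurkb and Mki67) to 2.31 (Ube2c), and 22 filled red points all lie to the right of 0.

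Of 9 genes of mitotic entry, the 3 cyclins Ccna2, Ccnb1 and Ccnb2 and the kinase gene Plk1 were called higher at P6 and again at P10, and the other 5 were called at neither. Ccnb1 (gene number 100770842), which codes for cyclin B1, the main partner of Cdk1, had 1568 and 1746 normalised reads at P0, with 2347 and 2371 for P2, 2373 and 2349.7 for P4, 3388 and 2291 for P6 and 4160.0 and 4368 for P10. The P10 libraries were its 2 highest, and each library of P2 to P10 was above both of P0. At P10 the log2 change was 1.36 (SE 0.20, limma adjusted p = 0.00425), and at P6 0.75 (SE 0.20, limma adjusted p = 0.0327), and leaving out P0 replicate 1 ended the P10 call (adjusted p 0.0583). Ccnb2 (gene number 100773656), the second B-type cyclin, had 929 and 881 normalised reads at P0, with 1210.1 and 1267 for P2, 1353 and 1387 for P4, 2751 and 2531 for P6 and 3916 and 2464 for P10. All P6 and P10 libraries stood above all earlier ones. Its log2 change was 1.78 (SE 0.22, limma adjusted p = 0.00194) at P10 and 1.54 (SE 0.22, limma adjusted p = 0.00309) at P6. Ccna2, which codes for cyclin A2 of S phase and G2, had 1273 and 1279 normalised reads at P0, with 1693 and 1596 for P2, 1491 and 1381 for P4, 3614 and 4441 for P6 and 6275 and 2983 for P10, with a log2 change of 1.76 (SE 0.30, limma adjusted p = 0.00736) at P10. Plk1, the kinase that promotes Cdk1 activation and centrosome maturation, averaged 1334 ± 96.0 at P10 and 706 ± 40.6 at P0 (SD, n = 2 each), a log2 change of 0.92 (SE 0.18, limma adjusted p = 0.0117). Among the 10 fits that left out 1 library, 8 kept the P10 call of Ccna2 and 8 that of Plk1. The P6 call held in 8 for Ccna2, 3 for Ccnb1 and 3 for Plk1.

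Cdk1 itself did not pass. Cdk1 (gene number 100766716), the kinase at the centre of mitotic entry, had 1752 and 1842 normalised reads at P0, with 2152 and 2071 for P2, 2220.4 and 2064 for P4, 2531 and 1516 for P6 and 2126 and 3323 for P10. Both P10 libraries were above both P0 libraries, but P6 replicate 2 was below them, and in P6 and in P10 the duplicates lay far apart. The difference at P10, on the log2 scale, was 0.56 (SE 0.28, limma adjusted p = 0.193), with a 95% confidence interval of -0.06 to 1.19. Without P10 replicate 1 it was 0.89. Foxm1, a transcription factor that drives G2/M genes, had 359.8 and 270.2 normalised reads at P0, with 339.5 and 311 for P2, 304 and 325 for P4, 416 and 326 for P6 and 410.1 and 428 for P10. The P10 libraries were above both P0 libraries, which themselves lay apart, and the log2 change was 0.43 (SE 0.20, limma adjusted p = 0.186), with an interval of -0.04 to 0.89. Cdc25c, a phosphatase that activates Cdk1, averaged 191 ± 31.9 at P10 and 112 ± 27.2 at P0, a log2 change of 0.78 (SE 0.26, limma adjusted p = 0.0676). Its relative Cdc25b averaged 275 ± 30.1 at P10 and 354 ± 55.8 at P0, with both P10 libraries below both P0 libraries and a log2 change of -0.36 (SE 0.22, limma adjusted p = 0.31). Aurka, the kinase of centrosomes and spindle poles, averaged 643 ± 174 at P10 and 528 ± 59.3 at P0, a log2 change of 0.26 (SE 0.23, limma adjusted p = 0.475), and its groups overlapped. Without P10 replicate 2 that change was -0.02, and without P10 replicate 1 it was 0.54.

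Of the 5 spindle checkpoint genes all but Bub3 rose at P10. There were 4 called higher at P10 (Bub1, Bub1b, Mad2l1 and Ttk) and 3 at P6 (Bub1, Bub1b and Ttk). Bub1b codes for BubR1, part of the complex that inhibits APC/C. It had 454 and 412 normalised reads at P0, with 644 and 600.1 for P2, 595 and 712 for P4, 1015 and 889.8 for P6 and 1287 and 1091 for P10. The passages after P4 lay clear of the earlier ones. Against P0, its log2 change came to 1.45 (SE 0.17, limma adjusted p = 0.00193) at P10 and 1.13 (SE 0.17, limma adjusted p = 0.00454) at P6. Bub1, a kinase that recruits checkpoint proteins to kinetochores, had 1395 and 1670.0 normalised reads at P0, with 2123 and 1960.2 for P2, 2028 and 2133 for P4, 2657 and 2468 for P6 and 3877 and 3512 for P10. The log2 change was 1.27 (SE 0.17, limma adjusted p = 0.00242) at P10 and 0.75 (SE 0.17, limma adjusted p = 0.0171) at P6. Mad2l1, which binds Cdc20 in the checkpoint complex, averaged 960.2 ± 9.48 at P10 and 465 ± 15.5 at P0, a log2 change of 1.05 (SE 0.17, limma adjusted p = 0.00652). Ttk, the kinase Mps1 that starts checkpoint signalling, averaged 1619 ± 750.5 at P10 and 670.1 ± 48.3 at P0, a log2 change of 1.19 (SE 0.28, limma adjusted p = 0.0237). The P10 call of Ttk was lost in 5 of the 10 fits that left out 1 library, and its P6 call held in 2 of them. In the same fits the P6 call of Bub1 held in 7 and the P10 call of Mad2l1 in 9. Bub3, which ties Bub1 and BubR1 to kinetochores, averaged 1606 ± 215 at P10 and 1248 ± 69.6 at P0, a log2 change of 0.36 (SE 0.20, limma adjusted p = 0.259).

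**Figure D3:**
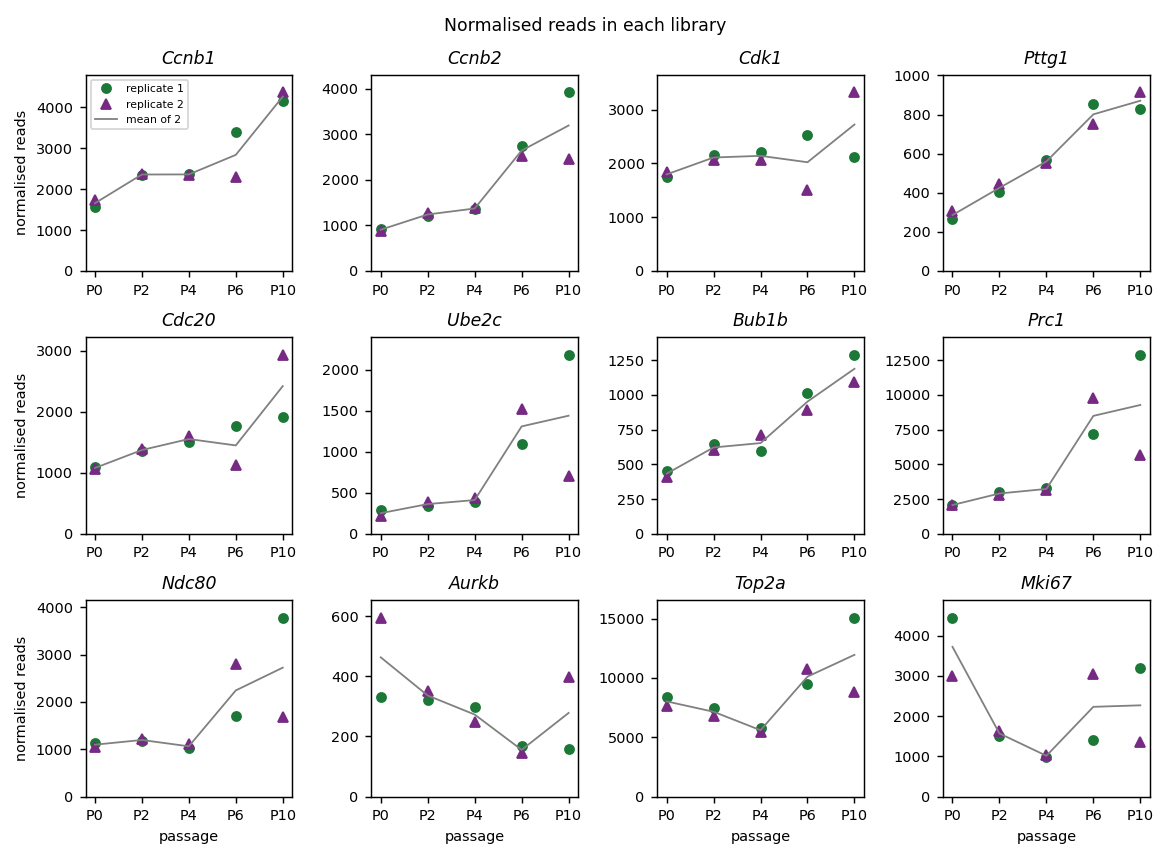
Each panel plots 1 gene, with passage from P0 to P10 on the horizontal axis and normalised reads on the vertical axis from 0; circles are replicate 1, triangles replicate 2, and the line joins the means of 2. Pttg1 and Bub1b have close duplicates at each passage, whereas Ube2c at P10 has 2180.4 and 702, and Mki67 is lowest at P4 with 993 and 1031.

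All 3 genes of APC/C and securin were called higher at P10. Pttg1 had 264 and 308 normalised reads at P0, with 406 and 444 for P2, 569 and 551 for P4, 852 and 749 for P6 and 828 and 913 for P10. Its libraries stepped upward to P6 without overlap between neighbouring passages, while those of P6 and P10 overlapped. At P10 the log2 change was 1.61 (SE 0.17, limma adjusted p = 0.00109), and at P6 1.49 (SE 0.17, limma adjusted p = 0.00127). Ube2c (gene number 100760884), the ubiquitin-conjugating enzyme of APC/C, had 286 and 217 normalised reads at P0, with 334 and 390.0 for P2, 386 and 437 for P4, 1100.3 and 1521 for P6 and 2180.4 and 702 for P10. Every P6 and P10 library was above every earlier one, with P10 replicate 1 at 3.10 times its duplicate. Its log2 change was 2.31 (SE 0.45, limma adjusted p = 0.0111) at P10 and 2.37 (SE 0.45, limma adjusted p = 0.00936) at P6. With 1 library left out, its P10 call held in 8 of 10 fits and its P6 call in 7. Cdc20, the activator of APC/C in early mitosis, had 1089.7 and 1066 normalised reads at P0, with 1349.7 and 1395 for P2, 1510.0 and 1596 for P4, 1765 and 1131 for P6 and 1912 and 2927 for P10. The P10 libraries were above all others, but P6 replicate 2 was below the P2 and P4 libraries. Against P0, its log2 change came to 1.13 (SE 0.26, limma adjusted p = 0.0191) at P10 and 0.39 (SE 0.26, limma adjusted p = 0.282) at P6, and the P10 call was lost without P0 replicate 1 or P0 replicate 2 (highest adjusted p 0.123).

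Of 4 kinetochore genes, 1 was called at P10, although all 4 had P10 libraries above both P0 libraries. Nuf2 (gene number 100767003), a subunit of the Ndc80 complex that grips microtubules, had 422 and 428 normalised reads at P0, with 569.7 and 529 for P2, 484 and 465 for P4, 718 and 610.0 for P6 and 1106 and 809 for P10. The log2 change was 1.15 (SE 0.19, limma adjusted p = 0.00634) at P10 and 0.64 (SE 0.19, limma adjusted p = 0.0446) at P6. With 1 library left out, the P10 call of Nuf2 held in 9 of 10 fits and its P6 call in 2. Ndc80 (gene number 100751668), which names the same complex, had 1138 and 1053 normalised reads at P0, with 1176 and 1214 for P2, 1021 and 1101 for P4, 1693 and 2791 for P6 and 3773 and 1673 for P10. Every P6 and P10 library was above every earlier one, and the duplicates of both passages lay far apart. The log2 change was 1.20 (SE 0.36, limma adjusted p = 0.0512), just short of a call, and with TMM scaling it was 1.18 (adjusted p 0.0484). Without P10 replicate 1 it was 0.61 and without P10 replicate 2 1.78. Cenpe, a kinesin that moves chromosomes to the spindle equator, averaged 4719 ± 2335 at P10 and 2584 ± 214 at P0, a log2 change of 0.78 (SE 0.31, limma adjusted p = 0.123). Cenpf, a large protein of the outer kinetochore, averaged 6196 ± 2677 at P10 and 3585 ± 173 at P0, a log2 change of 0.72 (SE 0.28, limma adjusted p = 0.109). Without P10 replicate 2 the changes of Cenpe and Cenpf were 1.30 and 1.17, and without P10 replicate 1 they were 0.25 and 0.26.

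The chromosomal passenger complex corrects faulty attachments and later guides cytokinesis. No passage had calls of its genes in both directions. The scaffold Incenp and the targeting subunit Cdca8 (borealin) were called higher at P10, and the kinase Aurkb was called lower at P6. Incenp had 1263 and 1148 normalised reads at P0, with 1316 and 1395 for P2, 1423 and 1543 for P4, 1960.3 and 1467 for P6 and 2083 and 2109 for P10. At P10 it changed by 0.80 (SE 0.18, limma adjusted p = 0.0186) on the log2 scale, with the call lost without P0 replicate 1 or P0 replicate 2 (highest adjusted p 0.123). Cdca8 (gene number 100753031) had 197 and 229 normalised reads at P0, with 306 and 375 for P2, 344 and 267 for P4, 337 and 284 for P6 and 386 and 552 for P10. At P10 it changed by 1.12 (SE 0.24, limma adjusted p = 0.0164) on the log2 scale, a call lost without P0 replicate 1 or P0 replicate 2 (highest adjusted p 0.134). Aurkb (gene number 100753283) had 332 and 594 normalised reads at P0, with 322 and 349.8 for P2, 297 and 248 for P4, 167 and 144 for P6 and 158 and 398 for P10. The P6 libraries and P10 replicate 1 were its 3 lowest, P10 replicate 2 lay between the P0 libraries, and the P0 libraries themselves differed widely. The log2 change was -1.51 (SE 0.42, limma adjusted p = 0.0348) at P6 and -0.82 (SE 0.42, limma adjusted p = 0.208) at P10. The P6 call was lost in 8 of the 10 fits that left out 1 library (highest adjusted p 0.211). Without P10 replicate 2 the P10 change of Aurkb was -1.49, and without P10 replicate 1 it was -0.16.

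All 4 spindle genes were called higher both at P6 and at P10. Nusap1 (gene number 100762702), a protein that bundles spindle microtubules, had 855 and 907 normalised reads at P0, with 1340.3 and 1176 for P2, 1333 and 1221 for P4, 2630.2 and 2454 for P6 and 3668 and 2298 for P10. All P6 and P10 libraries were above all earlier ones. At P10 the log2 change was 1.72 (SE 0.22, limma adjusted p = 0.00235), and at P6 1.53 (SE 0.22, limma adjusted p = 0.0036). Tpx2, which nucleates microtubules and activates Aurka, had 1355 and 1516 normalised reads at P0, with 2095 and 1966 for P2, 2019 and 1902 for P4, 3239 and 2240.1 for P6 and 4103 and 3523 for P10. Its log2 change was 1.41 (SE 0.20, limma adjusted p = 0.00392) at P10 and 0.91 (SE 0.20, limma adjusted p = 0.018) at P6, and leaving out P0 replicate 1 ended the P10 call (adjusted p 0.0554). Hmmr, a microtubule-associated protein of spindle poles, averaged 1976 ± 1126 at P10 and 611 ± 2.12 at P0, a log2 change of 1.56 (SE 0.34, limma adjusted p = 0.0176). Kif2c, a kinesin that depolymerises microtubules at centromeres, averaged 2316 ± 214 at P10 and 1020.0 ± 67.7 at P0, a log2 change of 1.18 (SE 0.18, limma adjusted p = 0.00472). When each library was left out in turn, the P6 call held in 2 of 10 fits for Hmmr, 3 for Kif2c and 7 for Tpx2. The P10 call held in 8 for Hmmr and 9 for Kif2c.

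Of 5 genes of the central spindle and cytokinesis, the same 4 were called higher at P6 and at P10: Prc1, Kif20a, Ect2 and Anln. Prc1, which cross-links the microtubules of the central spindle, had 2087 and 2047 normalised reads at P0, with 3027 and 2767 for P2, 3270.2 and 3181 for P4, 7171 and 9791 for P6 and 12849 and 5684 for P10. Its P6 libraries exceeded P10 replicate 2, and P10 replicate 1 exceeded all others. Against P0, its log2 change came to 2.05 (SE 0.34, limma adjusted p = 0.00644) at P10 and 2.02 (SE 0.34, limma adjusted p = 0.00624) at P6, with the P10 call lost without P0 replicate 1 or P0 replicate 2 (highest adjusted p 0.0651). Kif20a (gene number 100773707), a kinesin that carries passenger proteins to the central spindle, had 832 and 743 normalised reads at P0, with 921 and 842 for P2, 927 and 895 for P4, 1961 and 2063 for P6 and 2595 and 1661 for P10. Its P0, P2 and P4 libraries lay close together and those of P6 and P10 far above them. The log2 change was 1.40 (SE 0.21, limma adjusted p = 0.00476) at P10 and 1.35 (SE 0.21, limma adjusted p = 0.00493) at P6. Ect2, the exchange factor that activates RhoA at the cleavage furrow, averaged 3346 ± 1478 at P10 and 1219.5 ± 70.2 at P0, a log2 change of 1.38 (SE 0.28, limma adjusted p = 0.0136). Anln, the furrow scaffold anillin, averaged 7041 ± 3006 at P10 and 2215 ± 181 at P0, a log2 change of 1.60 (SE 0.28, limma adjusted p = 0.00778). Kif23, the motor of the centralspindlin complex, averaged 1629 ± 159 at P10 and 1179.6 ± 9.65 at P0, a log2 change of 0.46 (SE 0.15, limma adjusted p = 0.072). When each library was left out in turn, the P10 call held in 8 of 10 fits for Ect2 and 8 for Anln. The P6 call held in 2 for Ect2, 8 for Anln and 8 for Prc1.

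The chromosome genes Mki67 and Top2a, both common proliferation markers, were not called at P10. Mki67 had 4436 and 3002 normalised reads at P0, with 1494 and 1639 for P2, 993 and 1031 for P4, 1408 and 3050.1 for P6 and 3189.6 and 1343 for P10. All P2 and P4 libraries were below both P0 libraries, P6 replicate 2 and P10 replicate 1 reached the P0 range, and their duplicates did not. Its log2 change was -1.22 (SE 0.45, limma adjusted p = 0.179) at P2, -0.82 (SE 0.45, limma adjusted p = 0.208) at P6 and -0.82 (SE 0.45, limma adjusted p = 0.242) at P10. Without P10 replicate 1 the P10 change was -1.44 on the log2 scale. Top2a, the topoisomerase that untangles sister chromatids, had 8402 and 7649 normalised reads at P0, with 7497 and 6803 for P2, 5773 and 5417 for P4, 9474 and 10751 for P6 and 15060.4 and 8844 for P10. Its P4 libraries were the lowest and P10 replicate 1 by far the highest. The log2 change at P10 was 0.53 (SE 0.26, limma adjusted p = 0.203), with an interval of -0.07 to 1.12, and 0.91 without P10 replicate 2.

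The steps between neighbouring passages were tested in the same fit. No member was called at P4 against P2, at P6 against P4 or at P10 against P6, and no feature of the 13521 was (0% in each). At an unadjusted p under 0.05 there were 1, 18 and 11 members, beside 2.11%, 25.5% and 9.41% of all features. Called members were 0, 0 and 0 by edgeR and 0, 10 and 0 by DESeq2, which called 10, 463 (3.42%) and 67 features, while edgeR called 0 features at each step. The members' median log2 change was -0.05 at P4 against P2, 0.48 at P6 against P4 and 0.31 at P10 against P6, against -0.01, -0.01 and 0.04 over all features tested. For P10 against P6 the members' median was 0.55 without P10 replicate 2, 0.22 without P10 replicate 1 and 0.07 with equal total scaling, which put all features at -0.20. With the same scaling P6 against P4 gave 0.76 for the members and 0.27 for all features. At P6 against P4 the groups with the highest medians were central spindle and cytokinesis (1.12), chromosome genes (0.94) and kinetochore (0.82), whereas passenger genes had 0.03. At P10 against P6 they were passenger genes (0.57) and checkpoint genes (0.53), and central spindle and cytokinesis genes had 0.10. Whether these medians differ from each other was not tested. The step to P6 reached 19 called members, 18 higher and 1 lower, without P10 replicate 1 or without P10 replicate 2, fits that each called 27.2% of all features. The step to P10 reached 7, 6 higher and 1 lower, without P10 replicate 1, a share near the 21.7% of all features.

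P10 was also set against P2, which leaves the P0 libraries out of the difference. Of the 35 genes, 6 were called higher (Ccnb2, Bub1, Bub1b, Pttg1, Nusap1 and Kif20a), against 0.621% of all features tested, and none lower. The median log2 change was 0.86, against 0.00 over all features tested. Pttg1 was at 828 and 913 normalised reads at P10 and 406 and 444 at P2, a log2 change of 1.03 (SE 0.17, limma adjusted p = 0.0286). Ccnb2 had the larger log2 change, 1.33 (SE 0.22, limma adjusted p = 0.0288). DESeq2 called 20 members higher (6.18% of all features in either direction) and edgeR 3 (1.01%), and 0 were called in the fit of P2 and P10 alone, with a replicate block, or without any 1 of the P0, P2 and P4 libraries, against 25 without P10 replicate 2 (25.9% of all features).

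The duplicates of P6 and P10 divided the 35 genes much as they divided all features. In P6 replicate 2 and P10 replicate 1, the libraries low in Dym, 12 of the 35 genes were above both duplicates and 13 below both. Over all 13521 features tested, 4744 were above both and 5490 below both, so the split is not read as a result about these genes. The first 12 were Ccna2, Ttk, Ube2c, Cenpe, Cenpf, Ndc80, Prc1, Kif20a, Ect2, Anln, Mki67 and Top2a. The 13 were Cdk1, Ccnb1, Plk1, Aurka, Foxm1, Bub3, Mad2l1, Cdc20, Pttg1, Aurkb, Incenp, Cdca8 and Kif2c. These libraries thus had the same sign in 71.4% of the genes, near the 75.7% of all features tested, and the differences correlated at 0.72 across the 35 genes and 0.67 across all features, values that rest on 4 libraries. Cdk1 was at 0.599 times its duplicate in P6 replicate 2 and 0.640 times in P10 replicate 1. Ndc80 was at 1.65 times its duplicate in P6 replicate 2 and 2.25 times in P10 replicate 1. The part of whatever sets these libraries apart in the comparisons with P0 was not tested.

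**Figure D4:**
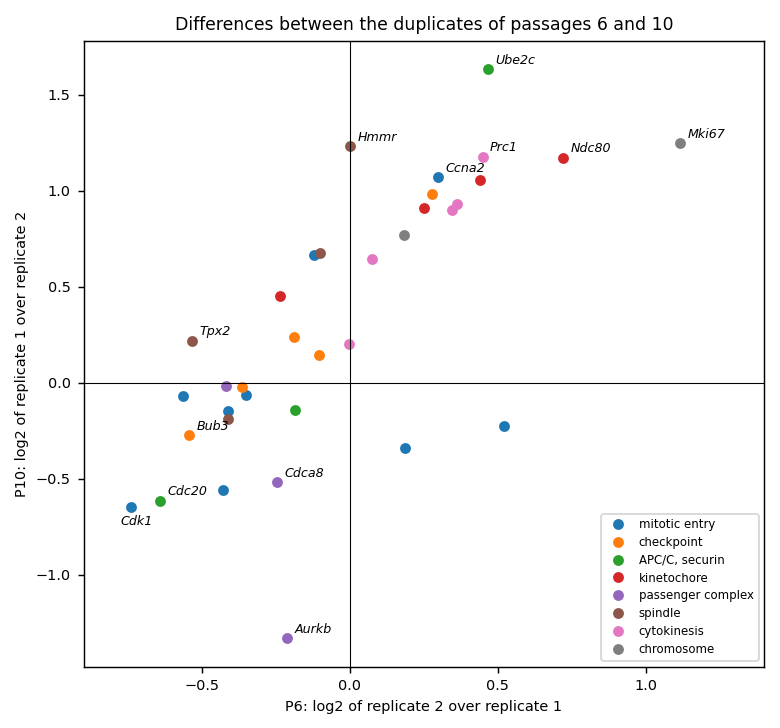
Each point is 1 of the 35 genes, coloured by role; the horizontal axis is the log2 ratio of P6 replicate 2 over replicate 1 and the vertical axis that of P10 replicate 1 over replicate 2. Kinetochore, cytokinesis and chromosome genes other than Nuf2 and Kif23 lie at the upper right, with Mki67 at 1.11 and 1.25, and the passenger genes with Cdk1 and Cdc20 at the lower left.

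Other genes of the cell cycle, 136 of 147 listed by name in 7 groups, were measured beside the 35. The number called higher was 3 for P2, 3 for P4, 39 for P6 and 54 for P10, and the number called lower was 3, 6, 5 and 2 in the same order. Over all features tested, 2.08%, 3.72%, 10.5% and 8.77% were called higher and 2.07%, 5.52%, 10.5% and 8.25% lower, so that the counts of P2 and P4 lay near or under the background in both directions. The P10 total of 56 fell when either P0 library was left out, as did the share of all features called. It was 0 in the fit of P0 and P10 alone, where 0.362% of all features were called. Their median log2 change at P10 was 0.74, against 0.00 over all features tested. Higher calls at P10 made up 17 of 36 other kinetochore genes, 16 of 26 spindle, centrosome and cytokinesis genes, 7 of 16 condensin and cohesin genes, 7 of 22 other mitotic regulators and 3 of 18 other APC/C and separase genes. None of these groups had a lower call at P10. At an unadjusted p under 0.05 there were 0, 1, 0, 1 and 2 lower genes, beside 2085 of the 13521 features tested. Of all 136 genes edgeR and DESeq2 each called 2 lower, counts given without the share of all features.

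The kinetochore protein gene Cenpi had 1196 and 1239 normalised reads at P10 and 463 and 519 at P0, a log2 change of 1.31 (SE 0.15, limma adjusted p = 0.00169). Trip13, an ATPase that takes apart the checkpoint complex, had 1309.6 and 1359 at P10 and 577 and 545 at P0, a log2 change of 1.25 (SE 0.15, limma adjusted p = 0.00201). For Spag5 (astrin), which holds kinetochore fibres, the values were 6128 and 5725 at P10 and 2119 and 2153 at P0, a log2 change of 1.47 (SE 0.16, limma adjusted p = 0.00116). In these 3 genes both P10 libraries lay far above both P0 libraries. Racgap1, the partner of Kif23 in centralspindlin, had 3214 and 2509 at P10 and 865 and 934 at P0, a log2 change of 1.66 (SE 0.20, limma adjusted p = 0.00198). Gtse1, a microtubule-binding protein of G2 phase, had 1191 and 1058 at P10 and 322 and 309 at P0, a log2 change of 1.83 (SE 0.19, limma adjusted p = 0.00116). Cdca2, which targets a phosphatase to chromatin in anaphase, changed by 1.07 (adjusted p = 0.00502) on the log2 scale. From the 16 condensin and cohesin genes, the 2 higher calls with the smallest p are named. Ncaph rose by 1.20 (limma adjusted p = 0.00275) and Ncapg2 by 0.84 (limma adjusted p = 0.00797) on the log2 scale. In that group 9 genes were not called, and the lowest log2 change was -1.03. Of the APC/C genes, Fbxo5 (Emi1), an inhibitor of APC/C, rose by 1.10 (adjusted p = 0.00736), and the subunit Anapc7 by 0.77 (adjusted p = 0.0219) on the log2 scale. Cenpi, Trip13, Spag5, Racgap1, Gtse1 and Ncaph were called in all 10 fits that left out 1 library. Without P0 replicate 1 the calls of Cdca2 (adjusted p 0.0589) and Fbxo5 (adjusted p 0.0745) were lost, that of Ncapg2 was lost without either P0 library (highest adjusted p 0.0715), and that of Anapc7 in 4 of the 10 fits (highest adjusted p 0.15).

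**Figure D5:**
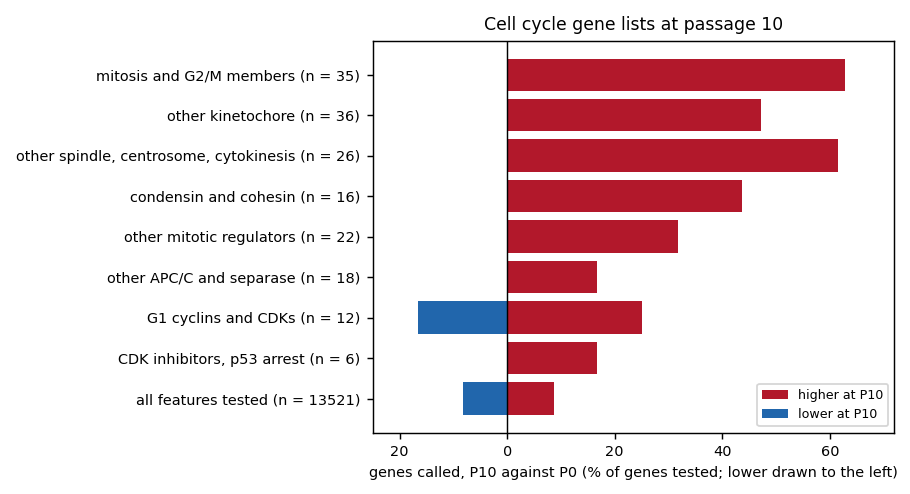
Bars give the percentage of each group's tested genes called higher (right, red) or lower (left, blue) at P10 against P0, with the number tested in brackets and all 13521 features tested at the bottom. The 35 mitosis and G2/M genes stand at 62.9% higher and the G1 cyclins and CDKs at 25.0% higher with lower calls beside them, against 8.77% higher over all features.

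Genes of G1 control had calls both ways: of 12 G1 cyclins and CDKs, 3 were called higher and 2 lower at P10, with a median log2 change of 0.17. Over all features tested, 8.77% were called higher and 8.25% lower, with a median of 0.00. Whether the counts of so few genes differ from that background was not tested. Ccnd1, cyclin D1, had 443 and 339 normalised reads at P0, with 1511 and 1688 for P2, 1622 and 1795 for P4, 2305 and 1245 for P6 and 937 and 918 for P10. It was higher in every library after P0 than in both P0 libraries, highest in P6 replicate 1, and lower at P10 than at P2, P4 and P6. Its log2 change was 2.04 (SE 0.28, limma adjusted p = 0.00619) at P2 and 1.26 (SE 0.28, limma adjusted p = 0.0172) at P10. Cdk6, a kinase partner of D-type cyclins, had 2112 and 1989 normalised reads at P0, with 547 and 470.5 for P2, 365 and 351 for P4, 308 and 495 for P6 and 632 and 486 for P10. It was below P0 in each later library. Its log2 change was -2.01 (SE 0.24, limma adjusted p = 0.00366) at P2 and -1.89 (SE 0.24, limma adjusted p = 0.00229) at P10. Ccnd2, cyclin D2, had 127 and 120.2 at P10 and 472 and 326 at P0, a log2 change of -1.66 (SE 0.26, limma adjusted p = 0.00547). The S phase entry genes Ccne2 and Cdk2 rose at P10 by 1.63 (adjusted p = 0.00828) and 1.04 (adjusted p = 0.0107) on the log2 scale. Leaving out either P0 library ended the P10 calls of Ccnd1 (highest adjusted p 0.124), Ccne2 (0.0748) and Cdk2 (0.102), and leaving out P0 replicate 1 that of Ccnd2 (adjusted p 0.0658). At P2 the call of Ccnd1 was lost in 3 of the 10 fits (highest adjusted p 0.0779) and that of Cdk6 in 2 (highest adjusted p 0.0652). Of the CDK inhibitors and p53 arrest genes, 6 of 12 were tested, and 1 was called, beside the same 8.77% higher and 8.25% lower over all features. It was Ccng1, a p53 target, higher by 1.11 (limma adjusted p = 0.0253) on the log2 scale. That call was lost in 6 of the 10 fits that left out 1 library (highest adjusted p 0.134) and with equal total scaling (adjusted p 0.0653). Cdkn1a, the inhibitor p21, was matched to no feature and is not analysed here.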

How the data were processed

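Per the labels' protocols, total RNA was taken with TRIzol, depleted of ribosomal RNA, and made into stranded Illumina libraries. The authors deposited 1 signal value per feature and library, read counts that, per the submitters' processing notes, were normalised with DESeq (version not given). No source used here gives the aligner, counting rule, build or annotation, so no coordinates are printed, and genes with near copies or overlapping neighbours have uncertain values. Within a tolerance of 0.01 reads, 100% of each column's values were whole multiples of 1 step, which gave back whole reads for the count-based alternatives and the depths, though for P4 replicate 1 the step is so near to 1 that this rests on decimals alone. Precision is set by the 2 libraries per passage.

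Symbols were matched to gene numbers through the RefSeq gene table of CriGri-PICRH-1.0 (16386 of 20050 numbered features). The test was limma 3.58.1 (R 4.3.3), trended empirical Bayes, two-sided, on log2(value + 1), for features averaging 10 or more (13521), with 1 mean per passage over all 10 libraries (5 residual degrees of freedom) and Benjamini-Hochberg adjustment within a comparison at 0.05. Errors are SD (n = 2) or the SE of the log2 change, which takes the spread of a gene as equal at all passages. Alternatives were TMM and equal total scaling, other pseudocounts and minimums, a replicate block, each library left out, only the passages compared, and edgeR 4.0.16 and DESeq2 1.42.0 on recovered reads. A fit without P6 replicate 2 and without P10 replicate 1 was added after seeing the data. The limma and edgeR tests were also run on simulated counts, for P10 against P0 only. That simulation gave every passage the same spread, unlike the real duplicates, so it cannot speak for the calls above. Genes, lists, tests and alternatives were chosen with earlier results of these data known. Genes given in every library or by name were, by rule, the 2 of each role group with the smallest p at P10 and 7 standard markers, and up to 2 genes per direction of each wider list with Ccnd1; Ccna2 and Cdk6 in every library, and the means of the remaining genes, were added after their values were seen.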

Additional observations from a re-analysis of the deposited data

How the results depend on the processing

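Across 80 changes of 51 named genes (all 35 at P10, and the changes printed for other comparisons), each run under 21 alternatives, 1 turned direction: Aurka at P10, 0.26 and not called, was -0.017 without P10 replicate 2 and up to 0.54 without P10 replicate 1. A call was gained or lost under at least 1 alternative in 73 of the 80. Counts of the 35 genes called were as follows where they moved. The share of all features called moved between fits as well. Counts printed here without that share are therefore not read as results about these genes or the other cell cycle genes. At P2 (0 called) DESeq2 gave 1, the fit of the compared passages alone 17, the fit that drops P6 replicate 2 with P10 replicate 1 (both late libraries) 19, and the fits that left out 1 library 0 to 5. At P4 (2 called) these gave 4, 21, 22 and 0 to 10, and equal total scaling and the replicate block 1 each. At P6 (19 called) the fit without both late libraries gave 29 and the fits that left out 1 library 5 to 23. At P10 (22 called) the fit of the compared passages alone gave 0 and the fits that left out 1 library 6 to 28. For P4 against P2 (0 called) the fit of the compared passages alone gave 2. For P6 against P4 (0 called) DESeq2 gave 10, the fit without both late libraries 22, and those without 1 library 0 to 19; for P10 against P6 (0 called) the last 2 gave 8 and 0 to 7. For P10 against P2 (6 called) equal total scaling gave 1, no filter on low values 3, edgeR 3, DESeq2 20, the compared passages alone 0, the replicate block 0, the fit without both late libraries 28, and those without 1 library 0 to 25. Where a fit leaves 1 library at a passage, that library is assumed to vary like the others, and the fit without both late libraries called 48.8% of all features at P6 and 46.3% at P10. Fits with fewer libraries have fewer degrees of freedom, and the spread pooled over passages takes in the wide duplicates of P6 and P10; beyond that, the cause was not tested. Equal total scaling moved the median log2 change of all features to 0.15 at P6 against P0, 0.27 at P6 against P4 and -0.20 at P10 against P6, and that of the 35 genes to 0.86, 0.76 and 0.07. Of the 136 other cell cycle genes, 6, 9, 44 and 56 were called at P2, P4, P6 and P10. Without both late libraries these were 54, 67, 90 and 99, without 1 library 0 to 19, 2 to 30, 5 to 82 and 11 to 84, and in fits of the compared passages alone 46, 63 and 0 at P2, P4 and P10. DESeq2 gave 10 at P2 and 15 at P4, and at P2 equal total scaling and the replicate block gave 3 each.

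The labels give replicates 1 and 2 at every passage but do not say that a number pairs libraries, and deviations of same-numbered libraries correlated between -0.67 (P6 and P10) and 0.23 (P2 and P10) across features. With the replicate block 22 genes were called at P10 and 15 at P6, counts given without the share of all features. The 2 libraries per passage limit all of these results: among the 35 genes at P10, calls reached down to a log2 change of 0.80 (Incenp), while Ndc80 at 1.20 was not called.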
